A study of Brassica rapa and Brassica oleracea and Brassica napus with 3 samples.

Results

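Chromosome A09 was followed gene by gene in 2 bisulfite sequencing libraries of young leaves, 1 from the allotetraploid Brassica napus and 1 from the diploid Brassica rapa. In B. napus, A09 belongs to An, the subgenome inherited from a B. rapa ancestor. All gene rows whose identifiers start with BnaA09G (B. napus) or BraA09g (B. rapa) were put in identifier order, 200 genes were left out at each end, and the rest were read in consecutive windows of 50 genes. This kept 6818 of 7218 A09 genes in B. napus and 6542 of 6942 in B. rapa, together 13360 of the 202814 genes on numbered chromosomes in the 3 libraries of the series. The kept genes formed 136 full windows in B. napus and 130 in B. rapa. A position along the chromosome is therefore a rank in gene order, given as a percentage of the genes kept, and not a physical distance. This choice of chromosome and of windows was made with the pattern of missing values and levels in view, so the values that define it are given as a description with no test.

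The B. napus plants were the cultivar ZS11 and the B. rapa plants the accession spelled Chiffu in the labels. Both were seedlings of 14 days, started in greenhouses and grown hydroponically in a phytotron, and the labels give neither a treatment nor a transgene. The third library of the series, from B. oleracea JZS, served here only for chromosome C09. Each species had 1 library, so species, plant, library and sequencing run cannot be told apart, no test between species was possible, and every SD below is a spread over genes, windows or chromosomes.

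In plants, methyl groups are placed on cytosines in several sequence contexts, and dense methylation marks transposons and other repeats. Repeats and dense methylation are concentrated around centromeres, where genes are sparse, whereas gene-rich chromosome arms carry little methylation over most gene bodies. Methylation of a flank or body by the repeat-type pathways is generally associated with low transcription, while many housekeeping genes carry a milder methylation of the transcribed region. Leaf is a mixture of cell types, and the contexts counted in a bin are not given. A level between the extremes can be a share of cells, a share of reads in each cell or a mix of contexts, and these cannot be told apart.

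Each gene row held 12 values: 4 bins upstream, 4 over the gene body and 4 downstream, in the direction of transcription. The order was checked on A09 itself. Among genes with an annotated 5′ UTR, the flank of that UTR repeated the gene's own upstream bins in 94.8% of 1161 B. napus genes and 91.0% of 2612 B. rapa genes, and repeated the downstream bins in only 1.46% and 0.957%. The 3′ UTR gave the mirror image, with 94.9% of 1253 genes and 92.0% of 3125 genes matching the downstream bins. A value is the methylated fraction of the bin, printed here as a percentage. A gene's level in a region is the mean of its bins there when at least 2 of the 4 had a value.

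A09 of B. napus held 1 unbroken stretch in which most bins had no value. Over the whole chromosome, 14.8% of the B. napus bins were empty (12075 of 81816) against 5.23% of the B. rapa bins (4108 of 78504). The 21 consecutive windows numbered 51 to 71 each had at least 50% of their bins empty, and no other full window of the chromosome did. They held 1050 genes, from BnaA09G0270100ZS to BnaA09G0375000ZS, and lay between 36.7% and 52.1% of the gene order. Their share of empty bins ran from 52.8% to 96.3% with a median of 73.2%, and 4 windows reached 90% or more. The other 115 windows had a median of 2.17% and a maximum of 32.7%. By whole windows the step was steep. The window before the stretch had 6.5% empty bins and its first window 52.8%. The last window of the stretch had 53.5% and the window after it 4%. Within that last window the empty bins fell gradually, as described below for the right edge. The stretch held 15.4% of the genes kept, 78.5% of the empty bins and 418 of the 460 genes (90.9%) without any value.

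B. rapa had no such stretch. No B. rapa window reached 50% empty bins, the median was 4.17% and the highest window had 33.3%. Only windows 56 and 60, with 27.2% and 33.3%, passed 25%, and both lay in the middle of the gene order, at 42.4% and 45.5%. Runs of neighbouring genes without a single value showed the same split. In B. napus there were 31 runs of 5 or more such genes, 28 of them inside the stretch. The longest was 18 genes, from BnaA09G0362900ZS to BnaA09G0364600ZS, followed by 16 genes from BnaA09G0347600ZS to BnaA09G0349100ZS. In B. rapa the longest run was 2 genes, for example BraA09g031420.4.1C and BraA09g031430.4.1C, and none reached 5.

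**Figure D1:**
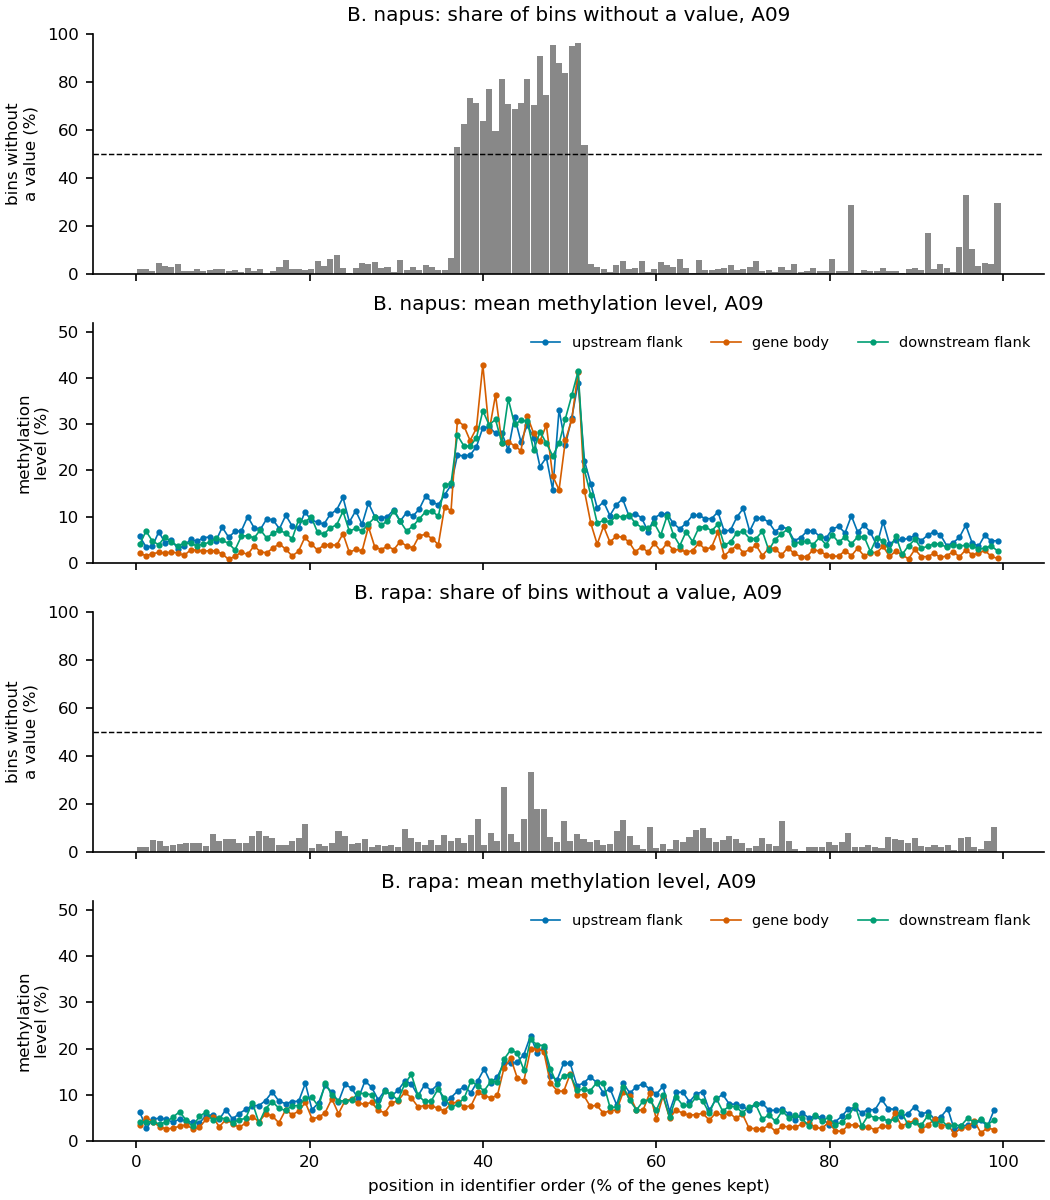
Windows of 50 genes along A09 in B. napus (upper pair of panels) and B. rapa (lower pair). Bars give the share of the window's bins without a value, with a dashed line at 50%, and points give the window's average level in percent for the 2 flanks and the gene body. The 21 B. napus windows above the line lie together at 36.7% to 52.1% of the gene order, where the levels are also highest, and no B. rapa window reaches the line.

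The bins of the stretch that did hold a value were highly methylated. The mean body level of its 21 windows ran from 15.5% to 42.9%, above the 12.2% of the highest window elsewhere. The mean level was 26.1% ± 11.8 in the upstream flank (SD over genes, n = 382 genes with a level), 28.5% ± 14.0 in the gene body (n = 224) and 28.4% ± 12.3 in the downstream flank (n = 369). The 5768 genes outside the stretch averaged 8.21% upstream, 3.10% in the body and 6.36% downstream. Medians separated the groups further: 25.4%, 28.8% and 29.2% inside, against 4.29%, 0.506% and 2.18% outside. A gene body level of 20% or more was found in 167 of 224 measured genes of the stretch (74.6%) and in 256 genes outside it (4.61%). A body under 5% was found in 16 genes of the stretch (7.14%) and in 85.8% of the genes outside. Bins at exactly 0 made up 2.95% of the measured bins inside and 29.1% outside.

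Within the stretch, most bin levels were intermediate. The cytosine contexts are not given, so these levels do not tell whether sites of any 1 context were fully methylated. Bins between 20% and 40% made up 54.0% of the 3123 measured bins, those between 40% and 60% made up 14.4%, and those above 60% made up 2.18%. The share of empty bins itself differed by region: 82.5% in the gene body, 70.9% upstream and 72.2% downstream. By how much of a gene was measured, genes with 1 to 4 measured bins averaged 27.5% over those bins (348 genes), genes with 5 to 8 averaged 28.8% (186 genes) and genes with 9 to 12 averaged 25.3% (98 genes).

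The profile along the gene differed between the stretch and the genes outside it. Outside the stretch, the profile had the dip that is usual over plant genes, from 9.02% in the outermost upstream bin to 2.62% in the first body bin and back to 7.16% in the outermost downstream bin. Inside, the same 3 bins averaged 25.3%, 30.7% and 26.7%. By window, the body exceeded the upstream flank in 14 of the 21 windows of the stretch and in 0 of the other 115. The order of body and flank inside the stretch differed with the genes counted. Among genes with all 4 bins of a region the body averaged 23.4% (n = 81), the upstream flank 24.7% (n = 136) and the downstream flank 26.4% (n = 126). Among the 34 genes with all 12 bins the body averaged 21.8% and both flanks 24.4%, and the body exceeded the upstream flank in 16. In completely measured genes the body was thus under both flanks on average, while in all measured genes it was above the upstream flank. The completely measured genes include genes from the last 10 of the stretch, where only 0.833% of bins were empty. Body bins averaged 6.49% there, against 16.9% upstream and 20.1% downstream. Whether the order in completely measured genes holds without these edge genes was not tested.

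**Figure D2:**
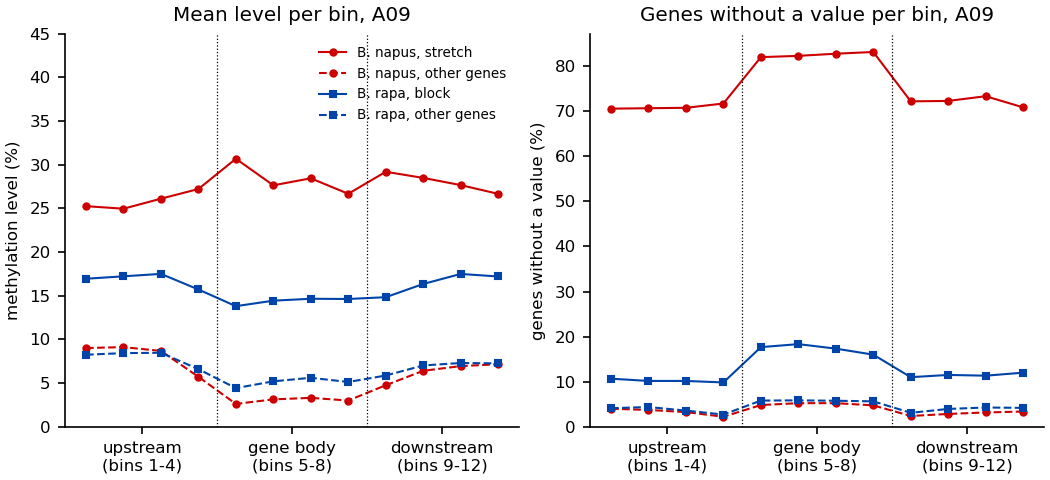
Mean methylation level (left, percent) and share of genes without a value (right, percent) in each of the 12 bins, for the B. napus stretch and the other B. napus A09 genes, and for the B. rapa block of windows 56 to 67 and the other B. rapa A09 genes. The bins dip over the gene body in the other genes of both species and lie between 24.97% and 30.69% in the B. napus stretch, where few genes have all 12 bins.

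At the left edge the body level rose a step of 10 genes before the empty bins did. In steps of 10 genes over the 100 genes before the stretch, body bins averaged 2.29% to 19.3% and 0% to 15% of bins were empty. The 10 genes before it, BnaA09G0269100ZS to BnaA09G0270000ZS, had 6.67% empty bins and measured body bins that averaged 10.9%. The first 10 genes inside, BnaA09G0270100ZS to BnaA09G0271000ZS, had 13.3% empty bins and body bins that averaged 28.2%, and the next 10 had 60.8% empty bins. Gene by gene, BnaA09G0269600ZS had a body level of 0.257% and BnaA09G0269800ZS 0.203%, between BnaA09G0269700ZS at 22.5% and BnaA09G0269900ZS at 30.6%. The last gene outside, BnaA09G0270000ZS, was at 29.5%. Just inside, the body levels of BnaA09G0270100ZS, BnaA09G0270200ZS, BnaA09G0270400ZS and BnaA09G0270500ZS were 30.4%, 25.5%, 36.4% and 27.97%, and BnaA09G0270300ZS had too few measured body bins. Low and high bodies thus alternated outside the edge, and every measured body of these 5 genes was high inside it.

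The right edge was a ramp. All bins were empty from BnaA09G0371100ZS to BnaA09G0372000ZS, 54.2% were empty over the next 10 genes, 17.5% over the 10 after that, and 0.833% over the last 10 genes of the stretch as drawn by windows, BnaA09G0374100ZS to BnaA09G0375000ZS. Those last genes already resembled genes outside the stretch. BnaA09G0374600ZS had a body level of 0, BnaA09G0374700ZS 0.248%, BnaA09G0374800ZS 0.472%, BnaA09G0374900ZS 10.9% and BnaA09G0375000ZS 15.6%. The next 5 genes, BnaA09G0375100ZS to BnaA09G0375500ZS, had bodies at 8.11%, 0, 0, 1.23% and 0, with upstream flanks between 14.2% and 39.7%. Low bodies beside methylated flanks were thus present on both sides of the right edge as drawn by windows. Over the first 3 steps of 10 genes beyond it, the body bins averaged 7.18%, 10.53% and 13.1%.

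**Figure D3:**
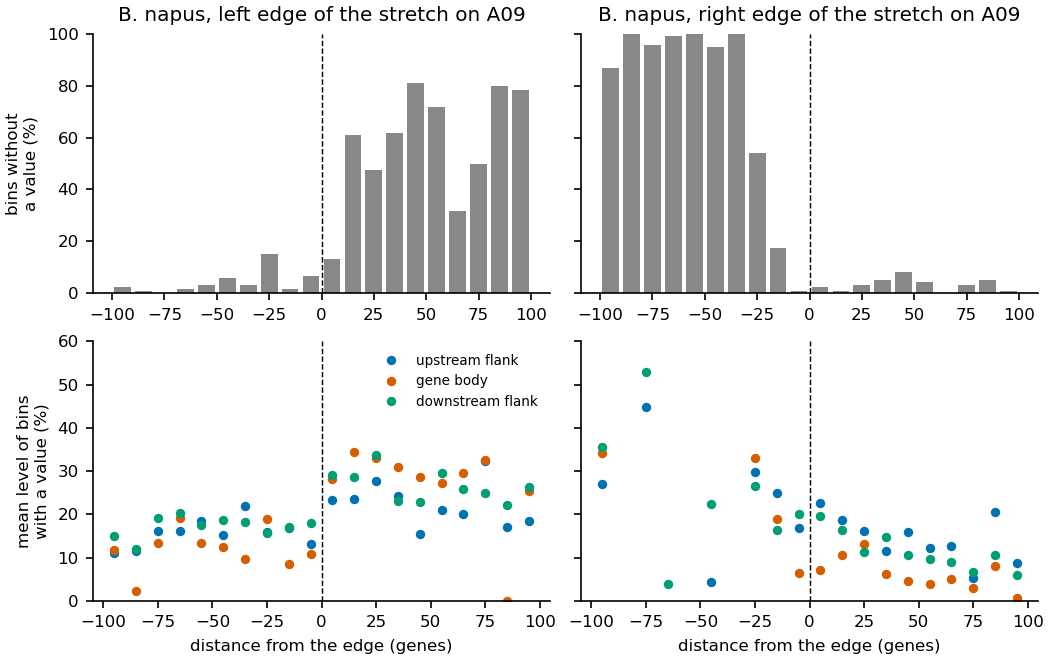
Steps of 10 genes across the left and right edges of the B. napus stretch, up to 100 genes on either side. The horizontal axis is the distance from the edge in genes (negative to the left), bars give the share of empty bins in percent, and points give the mean level in percent of the measured bins of the upstream flank, gene body and downstream flank. At the left edge the body bins step from 10.9% to 28.2%, and at the right edge the empty bins fall from 100% to 0.833% over 40 genes.

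The genes of the stretch also differed in features that the windows were not chosen on. An annotated UTR was present for 9 of its 1050 genes (0.857%) and for 1191 of the 5768 genes outside it (20.6%). No gene had a UTR in 14 of the 21 windows, and the other 7 had at most 4% of genes with one, whereas the windows outside ranged from 6% to 40%. The 2 ranges did not overlap. The genes of the stretch averaged 3.02 ± 1.97 exons against 4.91 ± 4.81 outside (SD over genes), and 10 or more exons were annotated in 8 of them (0.762%) against 776 outside (13.5%). Genes with a single exon were only moderately more frequent, at 28.9% against 22.0%, and the median was 3 exons in both groups. More than 1 transcript was annotated for 2 genes of the stretch (0.190%) and for 247 outside (4.28%). Window means of exon number overlapped at the margin, from 2.36 to 3.54 inside and from 3.14 to 8.76 outside, with 6 outside windows at or under 3.54. Whether these annotation features have a part in the missing values or in the levels was not tested.

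**Figure D4:**
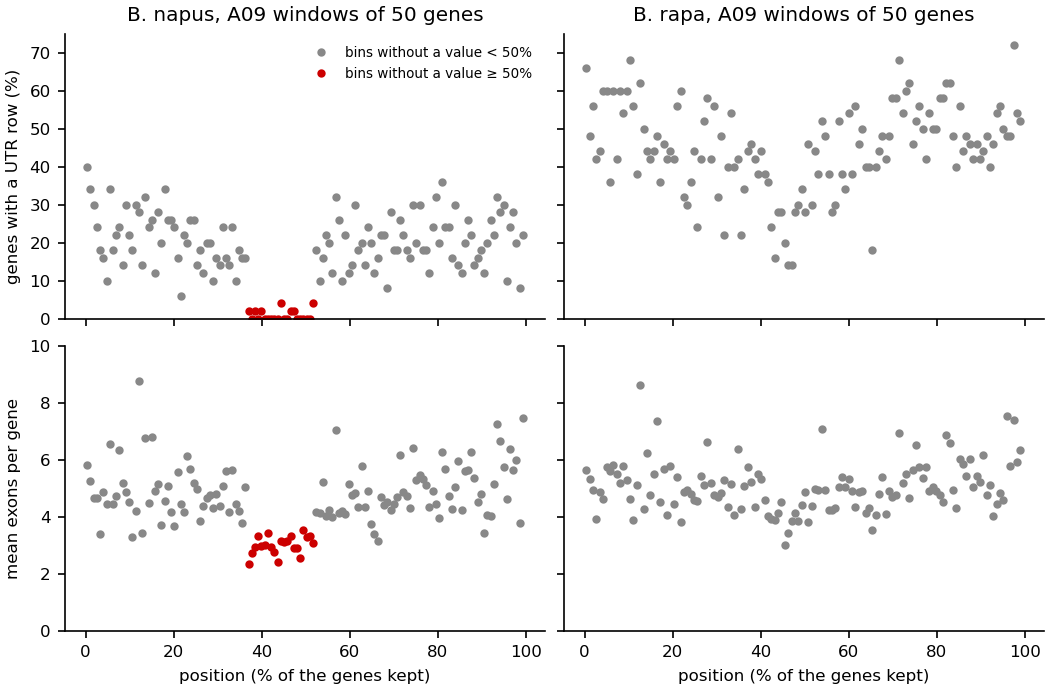
Share of genes with an annotated UTR (top, percent) and mean number of exons per gene (bottom) in windows of 50 genes along A09, B. napus on the left and B. rapa on the right. Windows with at least 50% empty bins are red: all 21 have 4% or fewer genes with a UTR, against 6% to 40% in the other B. napus windows.

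Missing values alone did not mark this state. On the right side of the chromosome, 6 further B. napus windows had between 10.2% and 32.7% empty bins, namely windows 113, 125, 130, 131, 132 and 136, at 82.5% to 99.4% of the gene order. Their body levels, from 0.958% to 2.81%, were under the median window of the chromosome (2.88%), and 10% to 30% of their genes had an annotated UTR. Their upstream flanks ran from 4.35% to 10.2%, and all but that of window 113 were under the median window (8.89%). The last of them, from BnaA09G0695100ZS to BnaA09G0700000ZS, had 29.3% empty bins, 7 genes without any value and the third lowest body level of the chromosome. The final, incomplete window of 18 genes had 81.9% empty bins and was left out of the window values. A09 of B. napus thus held empty bins with high levels in the middle and empty bins with body levels under the median towards the right end. Across the 136 windows, the share of empty bins and the body level had r = 0.91, and across the 113 windows outside the highly methylated block described next r was -0.10. Windows of 1 library share its depth and its annotation, and these coefficients describe them without a test.

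In both species the highest levels lay in 1 block of windows near the middle of the gene order. Counting consecutive windows with a mean body level of at least 10%, the block ran in B. napus over windows 49 to 71 (1150 genes, 35.2% to 52.1% of the gene order) and so began 2 windows, or 100 genes, to the left of the stretch. These 2 windows had 1.67% and 6.5% empty bins, body levels of 12.2% and 11.3%, and 16% of genes with a UTR in each. In B. rapa the block ran over windows 56 to 67 (600 genes, 42.0% to 51.2%), so it fell inside the range of ranks of the B. napus block. In all, 16 B. rapa windows reached 10%, 12 of them in the block. Its means were 16.9% ± 9.70 upstream (n = 563), 14.6% ± 11.3 in the body (n = 522) and 16.8% ± 9.83 downstream (n = 553), against 8.07%, 5.30% and 7.002% in the rest of A09. Body levels of the windows did not overlap between block and rest in B. napus (11.3% to 42.9% against 0.728% to 8.54%), a split the threshold itself makes, and overlapped slightly in B. rapa (10.03% to 19.99% against 1.56% to 10.6%).

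The B. rapa block had lower levels and fewer empty bins than the B. napus stretch in all 3 regions. It differed from the rest of its A09 in the same directions. Its windows were chosen on a body level of at least 10%, so its higher body level is no separate result. The flanks followed the body over B. rapa windows, with r = 0.91 upstream and 0.92 downstream. Its empty bins made up 13%, with 17.3% in the body, 10.2% upstream and 11.5% downstream, and 345 of its 600 genes had all 12 bins. Body levels of 20% or more were found in 182 genes (34.9%) and body levels under 5% in 170 (32.6%), so low and high gene bodies lay side by side. An annotated UTR was present for 155 genes (25.8%) against 2780 in the rest of A09 (46.8%), the mean number of exons was 3.99 ± 2.95 against 5.18 ± 4.68, and more than 1 transcript was annotated for 13.8% against 25.5%. The B. rapa annotation has UTRs for 44.9% of the A09 genes kept and the B. napus annotation for 17.6%, so these shares compare within a species only.

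The sides of the block were alike in their gene models and differed in level. The 2400 B. napus genes to its left had a body level of 3.14% ± 7.05 (SD over 2331 genes) and the 3268 genes to its right 2.80% ± 6.79 (3124 genes), with upstream flanks at 8.39% and 7.84% and downstream flanks at 6.80% and 5.69%. In B. rapa the body level was 6.20% ± 9.41 over 2657 genes on the left and 4.53% ± 7.97 over 3079 genes on the right, with upstream flanks at 8.80% and 7.44%. The left side was thus the higher one in both libraries. These are single values per library, and the difference was not tested. UTRs were annotated for 21.3% and 20.3% of the B. napus genes on the left and right, and the mean number of exons was 4.90 and 4.93.

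The most methylated B. napus window was number 55, BnaA09G0290100ZS to BnaA09G0295000ZS, at 39.97% of the gene order, with a body level of 42.9% ± 16.1 over the 16 of its 50 genes that had one. Its upstream and downstream flanks were at 29.3% (27 genes) and 32.9% (32 genes). Next came window 70, BnaA09G0365100ZS to BnaA09G0370000ZS, whose 41.4% rested on 1 gene, and window 57, BnaA09G0300100ZS to BnaA09G0305000ZS, at 36.4% (17 genes). No gene of window 55 had all 12 bins. The lowest were window 15, BnaA09G0090100ZS to BnaA09G0095000ZS, at 0.728% (50 genes), window 122, BnaA09G0625100ZS to BnaA09G0630000ZS, at 0.824% (48 genes), and window 136 at 0.958% (39 genes). The 3 highest windows of B. napus thus rested on 1 to 17 genes and the 3 lowest on 39 to 50.

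In B. rapa the 3 highest windows were neighbours. Window 61, BraA09g032010.4.1C to BraA09g032500.4.1C, had a body level of 19.99% ± 9.90 (n = 40 genes), window 60, starting at BraA09g031510.4.1C, 19.9% (n = 30), and window 62, ending at BraA09g033000.4.1C, 19.3% (n = 42). The lowest were window 124, BraA09g063510.4.1C to BraA09g064000.4.1C, at 1.56%, window 128, BraA09g065510.4.1C to BraA09g066000.4.1C, at 1.72%, and window 107, BraA09g055010.4.1C to BraA09g055500.4.1C, at 2.03%.

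Even the most methylated B. rapa window mixed opposite genes. Of its 22 genes with all 12 bins, BraA09g032430.4.1C had the highest body level, 41.5%, with 23.6% upstream and 23.0% downstream. Its body bins read 52.1%, 75%, 19.0% and 20%, with the 2 highest values in the first part of this single-exon gene. BraA09g032140.4.1C had 34.1% in the body with 30.9% and 33.1% in the flanks, a nearly flat profile, and BraA09g032270.4.1C had 30.2% with 17.9% upstream and 37.6% downstream. At the other extreme, BraA09g032230.4.1C was at 0 in all 4 body bins between flanks of 16.3% and 9.44%. BraA09g032450.4.1C had a body level of 2.09%. BraA09g032370.4.1C had 2.33%, with an upstream flank of 0.0644% and a downstream flank of 29.2%, which started at 54.2% in the bin next to the gene.

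To set the chromosomes side by side, each was divided into 20 parts with equal numbers of genes. This pairs the species by rank only: gene order was taken from the identifiers, and whether the same genes fall in the same part was not tested. The outline was shared. Over the 20 parts the levels of the 2 species had r = 0.91 upstream, 0.86 in the body and 0.90 downstream. Over the 15 parts in which B. napus had under 10% empty bins, r was 0.96, 0.93 and 0.97. From the left end to the middle the upstream flank went in B. napus from 4.58% in part 1 to 11.7% in part 7, and in B. rapa from 4.68% to 11.8%. On the right it was back at 4.96% and 3.86% in part 20.

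The species parted in the middle. In parts 8, 9 and 10, where 44.6%, 72.2% and 82.8% of B. napus bins were empty, the B. napus body level was 18.1%, 30.2% and 27.9%, and the B. rapa level was 7.95%, 12.9% and 15.3%. The differences, B. napus minus B. rapa, were 10.2, 17.3 and 12.5 percentage points. This direction rests on the measured bins of the stretch. An alternative chosen after seeing the data left out the 1050 genes of the stretch before the B. napus parts were formed and kept the B. rapa block. The B. napus body was then lower in 20 of 20 parts, with differences from -10.1 to -0.660 points. Its highest part was 7.69% against 15.3% in B. rapa. This alternative removed highly methylated genes from B. napus only, so it is no like comparison of the middle parts. With empty bins set to 0, the highest part was 8.44% in B. napus and 12.1% in B. rapa. In the main comparison, the flanks of parts 8, 9 and 10 were higher in B. napus by 8.21 to 15.2 points. In part 11, with 34.9% empty bins, B. napus differed by -0.640 points in the body and by 2.19 points upstream. The highest body level was in part 9 in B. napus and part 10 in B. rapa.

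Where B. napus had under 10% empty bins, the order of the species depended on the region. In the gene body B. napus was lower in all 15 parts with under 10% empty bins, with differences from -4.10 to -0.205 points and a median of -2.08. The gap was widest near the block, at -3.84 in part 7 and -4.10 in part 12, and narrowest at -0.205 in part 15. In the upstream flank the differences ran from -1.38 to 1.37 with a median of 0.21, and B. napus was lower in 5 of the 15 parts. In the downstream flank they ran from -1.49 to 0.363, with B. napus lower in 13. The upstream flanks of the 2 libraries thus lay close together on both sides of 0 while the bodies kept 1 direction.

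**Figure D5:**
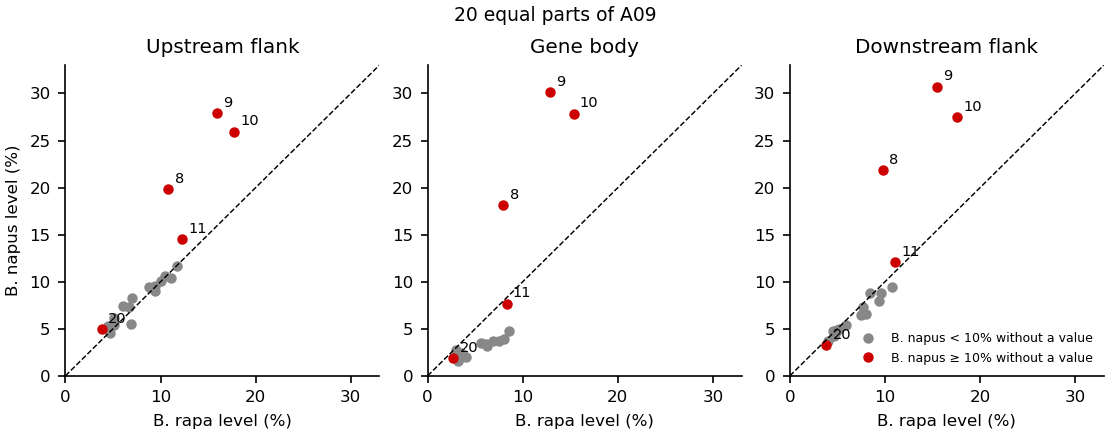
Mean methylation level of B. napus (vertical, percent) against B. rapa (horizontal, percent) in 20 equal parts of A09, for the upstream flank, gene body and downstream flank. The dashed line marks equal levels, and red points with their part number are parts in which B. napus had at least 10% empty bins. All 15 grey points lie under the line in the gene body, and parts 8, 9 and 10 lie 10.2 to 17.3 points above it.

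Whole-chromosome means joined these opposite differences. The B. napus body averaged 4.08% against 6.08% in B. rapa, a difference of -1.99 points. This B. napus mean counts measured genes only: 224 of the 1050 genes of the stretch had a body level, against 5551 of the 5768 outside. The highly methylated stretch thus weighs less in the mean than its share of genes. Upstream the means were 9.34% and 8.85%, and downstream 7.71% and 7.85%. The same differences taken on all 10 A chromosomes had an SD of 0.664 points for the body, 0.736 upstream and 0.854 downstream. With these means only the body difference of A09 was larger than its SD. Each SD is a spread between chromosomes of the same libraries around their own mean, so it does not measure noise between libraries. The other regions depended on the processing: downstream the difference was -1.13 with medians and -1.66 without the stretch and the window on each side, and upstream it was 1.21 after each library was divided by its mean over A genes and -0.798 without the stretch and those windows. Among measured genes, B. napus bodies were lower on every A chromosome, with differences from -2.68 to -0.330 points. A09 lay within that range, so among these genes the direction is not particular to A09. On A05 as well, 1200 of 4602 B. napus genes lay in windows with at least 50% empty bins. Measured bodies averaged 30.7% there and 3.74% elsewhere on A05. Outside the B. napus stretch (defined by empty bins) and the B. rapa block (defined by level), the A09 differences were 0.137 upstream, -2.21 in the body and -0.647 downstream. A body level of at least 20% was found in 423 B. napus genes (7.32% of those measured), 167 of them in the stretch, and in 10.55% of the B. rapa genes. The B. napus share likewise leaves out the many unmeasured genes of the stretch.

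Neighbouring windows resembled each other in both species. The body level of a window and that of the next had r = 0.90 in B. napus (136 windows) and 0.86 in B. rapa (130 windows). The upstream and body levels of the same window had r = 0.93 and 0.91, and 0.75 and 0.85 outside the blocks. Even so, position accounted for the smaller part of the variation between genes. Differences between windows made up 36.2% of the variance of gene body levels in B. napus and 14.7% in B. rapa. They made up 4.72% and 7.56% once the blocks were left out. The blocks were chosen on a high body level, so leaving them out lowers these shares by construction. The share that windows of randomly ordered genes would give was not computed. Flank levels of neighbouring genes can share sequence where the genes lie close together.

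Among the 10 A chromosomes of B. napus, A09 was the one with the second highest share of empty bins, after A05 (21.6%), and the other 8 had 2.99% to 10.2%. A05 was also the most similar in form, with a single run of 24 windows (1200 genes, 36.9% to 63.0% of its gene order) of which 0.583% of genes had a UTR. The remaining chromosomes had at most 7 such windows. Outside its stretch A09 had 3.75% empty bins, within the 2.53% to 4.30% of the others. The highest window of A09 (42.9%) lay above the highest window of each other A chromosome (7.81% to 37.7%). In B. rapa, A09 had 5.23% empty bins (4.25% to 7.69% on the others), the highest upstream mean (8.85% against 6.76% to 8.68%) and the second longest block after A05 (600 and 750 genes).

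C09 of B. napus, in the Cn subgenome, had no stretch of this kind. Only 1 of its 116 windows had at least 50% empty bins, and its share of empty bins was 3.92%. Its most methylated window also lay in the middle, at 50.9% of the gene order, with a body level of 21.3%. C09 of B. oleracea had 6.65% empty bins and its highest window, 19.7%, at 49.8%. High levels in the middle of the gene order were thus seen on all 4 of these chromosomes, and a long run of windows with mostly empty bins on 1 of them.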

How the data were processed

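The values are methylated fractions that the authors deposited per gene and bin. The study filtered reads of whole-genome bisulfite libraries with Fastp and mapped them with BatMeth2, naming the ZS11 genome, while the rows of each species carry its own gene identifiers. Uniquely mapped reads are stated to have been kept. Bins cover the gene and 2 kb on each side. Cytosine contexts, bin widths, read depth, a coverage minimum and the conversion rate are not given in the sources used here, so no interval could be computed. The label protocols describe formaldehyde fixation for B. rapa and RNA extraction for ZS11, with genomic DNA as the molecule.

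Here fractions were multiplied to percent. Genes were ordered by identifier; UTR rows, exons and transcripts were counted from the same rows. Gene levels needed 2 of 4 bins. Python 3.11.15, numpy 2.4.6 and pandas 2.3.3 were used, and the functions were tested on simulated data. The genes named are those at the edges of the stretch, the bounds of the longest stretches and runs, of the 3 highest and 3 lowest windows of each library, the 3 highest and 3 lowest complete genes of the highest window. A further gene that the rule names is not reported here. The chromosome, windows and lists were chosen with earlier results of these data known. Gene names and sequences were not used here.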

Additional observations from a re-analysis of the deposited data

How the results depend on the processing

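The 26 values that describe A09 were recomputed under the alternatives that apply to each, 2 to 13 per value (209 values, 2 of the alternatives chosen after seeing the data: the mean over all bins, and leaving out the stretch before the parts were formed). A value is called moved when it shifted by more than the SD of that value over the 10 A chromosomes, and a gene count when it changed by over 1.5 times. This held for 73 values, and the cause was not tested. The lower B. napus gene body kept its direction under all 10 alternatives (-3.10 to -1.25 points). None of them gave the unmeasured genes of the stretch the level of its measured genes. That level was 28.5%, against 3.10% outside the stretch and 6.08% on A09 of B. rapa. The direction over all genes was therefore not tested and could be the reverse. The upstream difference changed sign under 3 of 10 (-0.798 to 1.21) and the downstream difference under 2 of 10 (-1.66 to 0.476). The longest B. napus stretch held 950 genes with windows of 25, 1000 with windows of 100, 1050 at a threshold of 25% empty bins and 100 at one of 90%. The longest in B. rapa held 50 genes at 25% and 0 under the others.

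With medians, the upstream, body and downstream levels were 5.32%, 0.563% and 2.71% in B. napus and 5.54%, 1.81% and 3.83% in B. rapa, the body and downstream differences -1.25 and -1.13 points, the highest B. rapa part 17.5%, and r 0.94 upstream and 0.90 in the body over parts and 0.79 over B. rapa windows. Requiring all 4 bins gave body levels of 3.04% and 5.30% in B. napus and B. rapa, highly methylated bodies in 4.505% and 8.37% of genes, and r of 0.83 between upstream and body over B. napus windows. Setting empty bins to 0 gave B. napus flanks of 7.80% and 6.39%, a B. rapa body of 5.45%, an upstream difference of -0.522, highest windows of 11.8% and 15.9%, a lowest B. napus window of 0.188%, highest parts of 8.44% and 12.1%, highly methylated bodies in 8.51% of B. rapa genes, r over parts of 0.58, 0.64 and 0.65, and r of 0.72 over B. napus windows. Leaving out bins at exactly 0 gave 10.9%, 6.08% and 9.24% in B. napus and 10.45%, 7.60% and 9.26% in B. rapa.

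Among genes with a body under 20%, the levels were 7.80%, 1.88% and 5.94% in B. napus and 7.77%, 3.44% and 6.49% in B. rapa, with highest parts of 11.4% and 7.81%. Without the stretch and the window on each side, B. napus levels were 8.05%, 2.98% and 6.19%, its highest part 10.1%, and the differences from the whole of B. rapa A09 -0.798, -3.10 and -1.66 points. The stretch was also left out of B. napus before the parts were formed, while the B. rapa block was kept. The highest B. napus part was then 7.69% against 15.3% in B. rapa. The B. napus body was lower in 20 of 20 parts (-10.1 to -0.660 points), including the middle, where only B. napus had lost highly methylated genes. A body threshold of 10% was passed by 11.97% of B. napus and 21.2% of B. rapa genes, and one of 30% by 3.39% and 3.31%. With 10 parts r was 0.95, 0.91 and 0.95. Spearman's rho was 0.97, 0.91 and 0.98 over parts, and 0.82 and 0.88 over windows of B. napus and B. rapa. The lowest windows were 0.246% and 1.01% at 25 genes and 1.07% and 2.502% at 100 genes, with r of 0.86 and 0.94 over B. rapa windows.

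A coverage minimum could not be tried, since the files give no coverage. No paired analysis was possible because each species had 1 library.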
